A study of Mus musculus with 20 samples.

Results

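The interferon response and antigen presentation genes described here are 39 genes listed by name and grouped by function: nucleic acid sensors, transcription factors, antiviral effectors, interferon-induced GTPases and the machinery that loads peptides onto MHC class I. All 39 were found by symbol among the 45802 gene entries of an expression table from fetal mouse liver, and 33 of them were among the 11807 genes that reached the minimum level for testing. Bulk RNA sequencing had been run on livers of 20 fetuses at E17.5, 4 per group with 2 females and 2 males in each, all on C57BL/6 and all from dams fasted for 24 h. The title of the series places the work as a study of how maternal nutritional stress regulates fetal liver transcription.

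The Cpt2LKODam_FloxFetus group held Cpt2f/f fetuses of Cpt2f/f dams that carry Albumin-Cre, a transgene that drives recombination in hepatocytes, and it was set against FloxDam_FloxFetus, Cpt2f/f fetuses of Cpt2f/f dams. The labels give the fetuses of both groups as Cpt2f/f and name no Cre for them, while the titles call them WT. KODam_KOFetus held Ppara knockout fetuses of Ppara knockout dams and KODam_HetFetus held Ppara heterozygous fetuses of Ppara knockout dams. Both were set against HetDam_HetFetus, heterozygous fetuses of heterozygous dams, so these controls carry a disrupted allele too, although the design text speaks of wild-type animals. A number in the sample descriptions is shared by KODam_HetFetus replicates 1 and 2, by KODam_KOFetus replicates 1 and 2 and by FloxDam_FloxFetus replicates 3 and 4. These fetuses are presumed to be littermates, and the p-values below measure the spread between fetuses, not between litters.

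Type I interferons act through a receptor whose kinases activate a complex that holds STAT2 and IRF9 and binds the interferon-stimulated response element (ISRE) of antiviral genes. Interferon gamma acts at gamma-activated sites (GAS), and IRF1, itself induced in this way, carries the signal on to genes of the immunoproteasome, peptide transport and immunity-related GTPases. Fetal liver at this stage is both a hepatocyte tissue and the main site of blood formation, and many of these genes have a basal level in its macrophages and blood cell progenitors.

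Promoter stretches of 7 of these genes are shown because they carry the ISRE core or GAS letters through which interferon signals are known to act, 3 from genes whose level fell in KODam_HetFetus and 4 from genes that were not called there. They come from RefSeq (GRCm38.p6), run 5′ to 3′ on the strand of the gene, are 60 bases long, and have the matched letters in capitals. The genes called lower are Isg15 (chr4:156200856-156200915, minus strand), Igtp (chr11:58199491-58199550, plus strand) and Irf1 (chr11:53769898-53769957, plus strand). Those not called are Irgm1 (chr11:48871421-48871480, minus strand), Ifit1 (chr19:34640769-34640828, plus strand), B2m (chr2:122147523-122147582, plus strand) and Psmb8 (chr17:34198072-34198131, plus strand).
Isg15: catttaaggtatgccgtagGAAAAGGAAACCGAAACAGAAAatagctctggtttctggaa
Igtp: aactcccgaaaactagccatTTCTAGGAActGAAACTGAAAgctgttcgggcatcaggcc
Irf1: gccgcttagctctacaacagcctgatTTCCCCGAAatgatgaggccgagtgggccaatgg
Irgm1: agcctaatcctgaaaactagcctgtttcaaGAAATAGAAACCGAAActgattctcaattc
Ifit1: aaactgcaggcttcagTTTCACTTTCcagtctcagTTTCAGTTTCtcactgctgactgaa
B2m: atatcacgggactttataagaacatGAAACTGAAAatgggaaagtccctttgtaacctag
Psmb8: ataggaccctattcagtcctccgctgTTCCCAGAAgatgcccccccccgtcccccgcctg
The capitals are runs of the ISRE core GAAANNGAAA, read on either strand, in Isg15, Igtp, Irgm1, Ifit1 and B2m, and of GAS TTCNNNGAA in Igtp, Irf1 and Psmb8. The Isg15 run holds 3 overlapping ISRE cores and that of Irgm1 holds 2. Over the 250 bases before each start, 13 of the 30 member genes with an entry held an ISRE core (43.3%), against 936 of all 27025 genes (3.46%), and 6 of the 30 held a GAS, against 8.13% of all genes. Both classes held such letters: an ISRE core lay in 3 of the 9 matched genes called lower and in 8 of the 18 not called, and a GAS lay in 3 of 9 and 3 of 18. These matches are descriptions of the letters, with no measure of binding.

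Ppara, the targeted nuclear receptor gene, was at log2 2.40, 2.48, 1.87 and 2.30 in KODam_KOFetus and at 2.172, 1.81, 3.05 and 3.22 in KODam_HetFetus, against 2.94, 2.86, 3.47 and 3.25 in HetDam_HetFetus. The libraries labelled KODam_HetFetus replicates 1 and 2, the presumed littermates, thus had Ppara levels as low as the knockout fetuses, while replicates 3 and 4 were within the range of HetDam_HetFetus. The table holds 1 value per gene, so it does not show which exons were read and is no genotype check, and the counts and the called members that rest on this pair are also given without it. Cpt2 ranged from 3.83 to 3.95 in Cpt2LKODam_FloxFetus and from 3.61 to 4.26 in FloxDam_FloxFetus, and since the labels place the deletion in the dams, the fetal level does not check it. All 8 hepatocyte and all 9 erythroid markers were tested genes in these livers. Summed markers of another tissue stood out in 4 libraries: skeletal muscle in KODam_KOFetus replicate 2 and HetDam_HetFetus replicate 4, pancreas in Cpt2LKODam_FloxFetus replicate 2, and gut in HetDam_HetFetus replicate 1. Each library had a value for 23334 to 26255 gene entries, and the depth in reads is unknown.

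**Figure D1:**
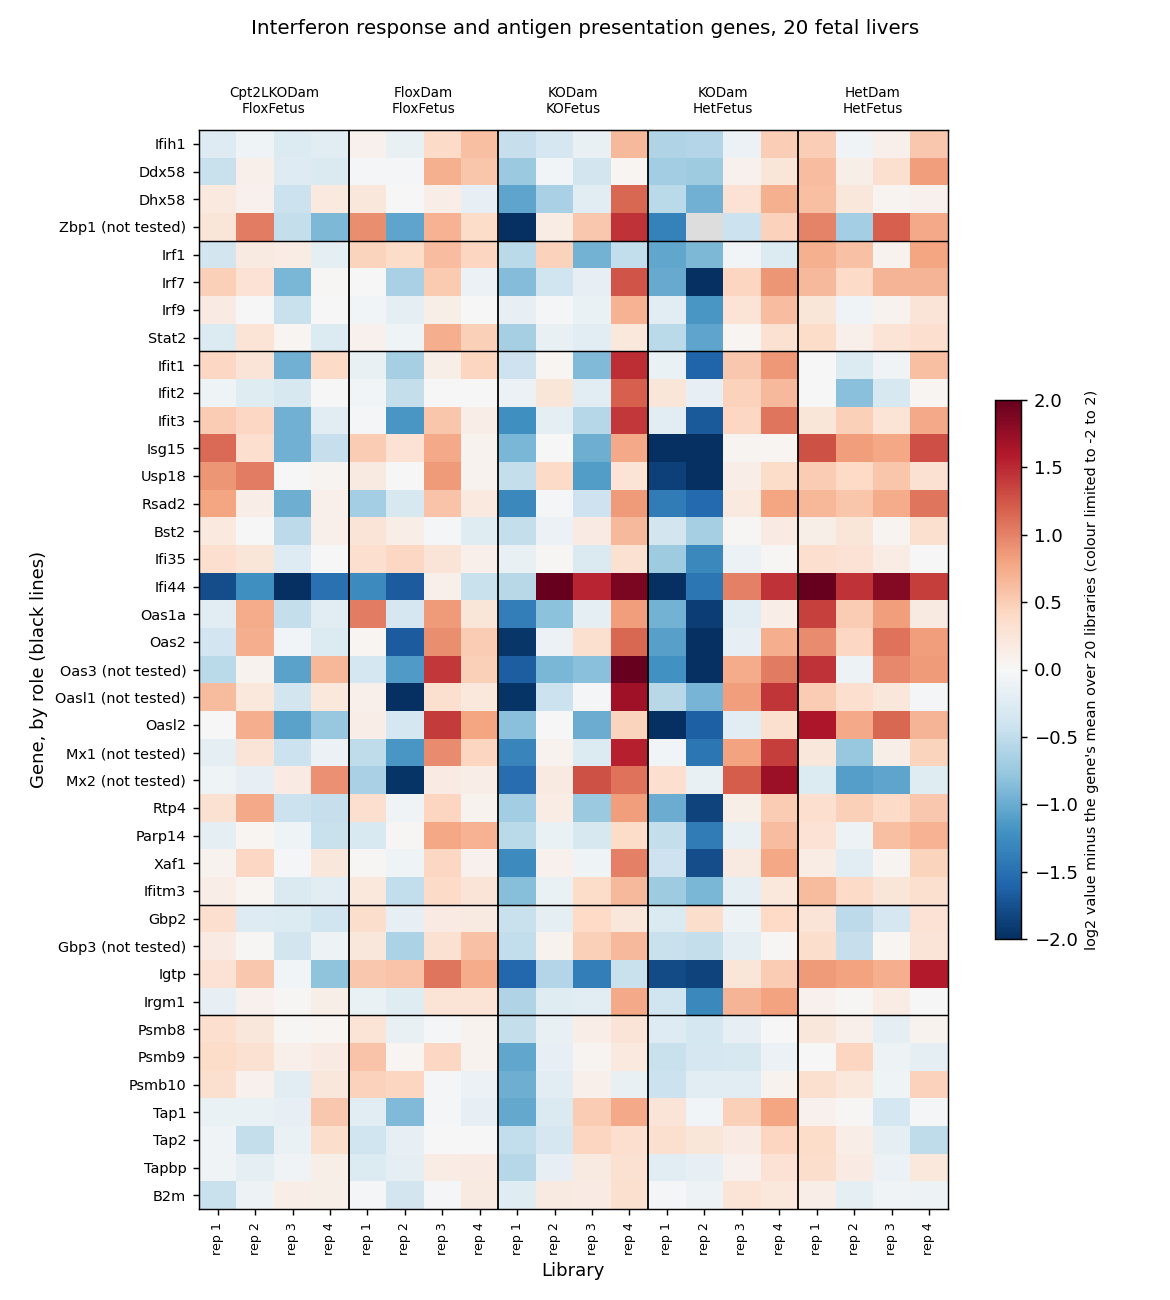
Level of the 39 genes (rows, grouped by role) in the 20 libraries (columns, grouped), as the log2 value minus the mean of the gene over all libraries, with 1 grey cell where Zbp1 has no value. KODam_HetFetus replicates 1 and 2 and KODam_KOFetus replicate 1 are blue over most rows, KODam_KOFetus replicate 4 and KODam_HetFetus replicate 4 are red, and B2m, Psmb8 and Tapbp are among the palest rows.

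Of 21 type I, II and III interferon genes listed in the table, 0 reached the minimum for testing. The response genes that were tested had widely different spreads. Isg15, a ubiquitin-like protein that is attached to other proteins, ranged over 3.96 log2 units across the 20 libraries, Igtp over 3.44 and Usp18 over 3.58. B2m, the light chain of MHC class I, ranged over 0.77 and Psmb8 over 0.81.

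The level of the whole set moved from fetus to fetus within a group. The median deviation of the 33 tested genes from their own means was -0.66, -0.13, -0.18 and 0.65 in KODam_KOFetus and -0.54, -1.16, 0.090 and 0.42 in KODam_HetFetus, against 0.35, 0.23, 0.14 and 0.33 in HetDam_HetFetus (log2). In the Cpt2 groups it was 0.14, 0.13, -0.27 and 0.0053 in Cpt2LKODam_FloxFetus, against 0.082, -0.16, 0.38 and 0.13 in FloxDam_FloxFetus. The fetuses of Ppara knockout dams were therefore spread widely on both sides of the HetDam_HetFetus livers, which lay close together. KODam_HetFetus replicates 1 and 2 were the 2 lowest libraries of their group for 31 of the 33 genes.

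**Figure D2:**
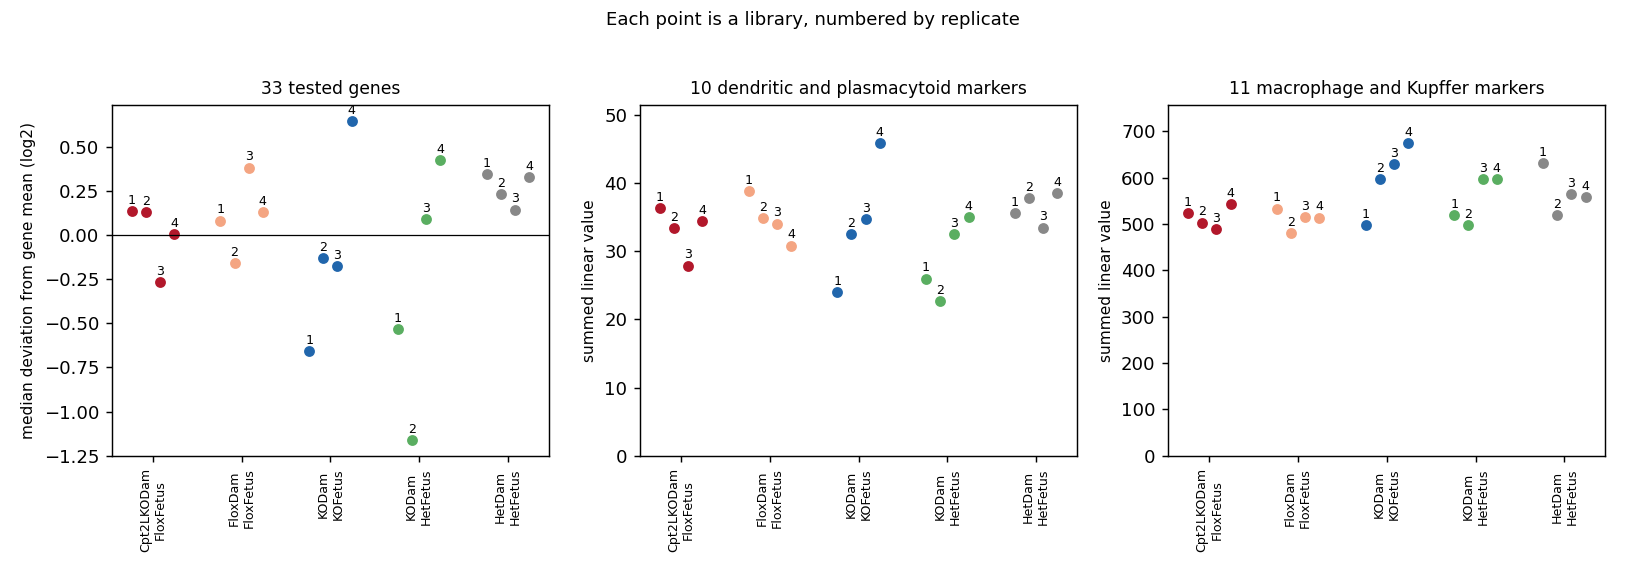
Median deviation of the 33 tested genes from their means (left, log2) and summed linear value of dendritic and of macrophage markers (middle and right), 1 point per library numbered by replicate. KODam_HetFetus replicates 1 and 2 and KODam_KOFetus replicate 1 are low in the left and middle panels, while macrophage markers stay between 480.5 and 675.5 in all 20 libraries. The middle panel is not independent of the left, since Bst2, one of the 33 genes, makes up much of the dendritic sum.

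Loss of maternal Ppara was assessed in heterozygous fetuses, KODam_HetFetus minus HetDam_HetFetus. Of the 33 tested genes, 0 were higher and 10 were lower at an adjusted p under 0.05 in limma (30.3%), while 39% of all genes tested were called, 26.4% higher and 12.6% lower. At an unadjusted p under 0.05 there were 16 of the 33, against 48.1% of all genes, and 6 of the 33 were lower without overlap between the groups, against 11.8% of all genes. The 10 comprised the sensor Ddx58, the transcription factor Irf1, the GTPase Igtp and 7 antiviral effectors or regulators (Isg15, Usp18, Oasl2, Oas1a, Ifi35, Ifi44 and Ifitm3), and none of the 7 antigen presentation genes. Ifi44 reached the minimum in no KODam_HetFetus library and was tested only because it was high in other groups, the controls among them, so its call is no support. In all, 28 of the 33 differences were negative, with a median of -0.54, against 0.14 over all tested genes. In a bulk liver, fewer cells of a type and less RNA per cell cannot be told apart. Without the presumed littermates, KODam_HetFetus replicates 1 and 2, the fit called 0 of the 33 (24.1% of all genes). Of the 33 differences 20 were then negative and 13 positive, with a median of -0.12 against 0.22 over all genes. The 10 called genes all stayed negative. They had been picked as lower with the remaining libraries included, so nothing is read from their sign. Leaving out single libraries gave 4 calls without KODam_HetFetus replicate 2, 5 without KODam_HetFetus replicate 1, 5 without HetDam_HetFetus replicate 1 and 17 without KODam_HetFetus replicate 4. The shares of all genes called in these fits were 34.3%, 30.0%, 34.7% and 35.3%. With litter as a random block, 4 were called (Irf1, Isg15, Igtp and Oasl2), while 31.9% of all genes were called. The other 6 lost their call in at least 1 of the fits without a single library, Ifi35 without KODam_HetFetus replicate 2 (adjusted p = 0.0576).

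**Figure D3:**
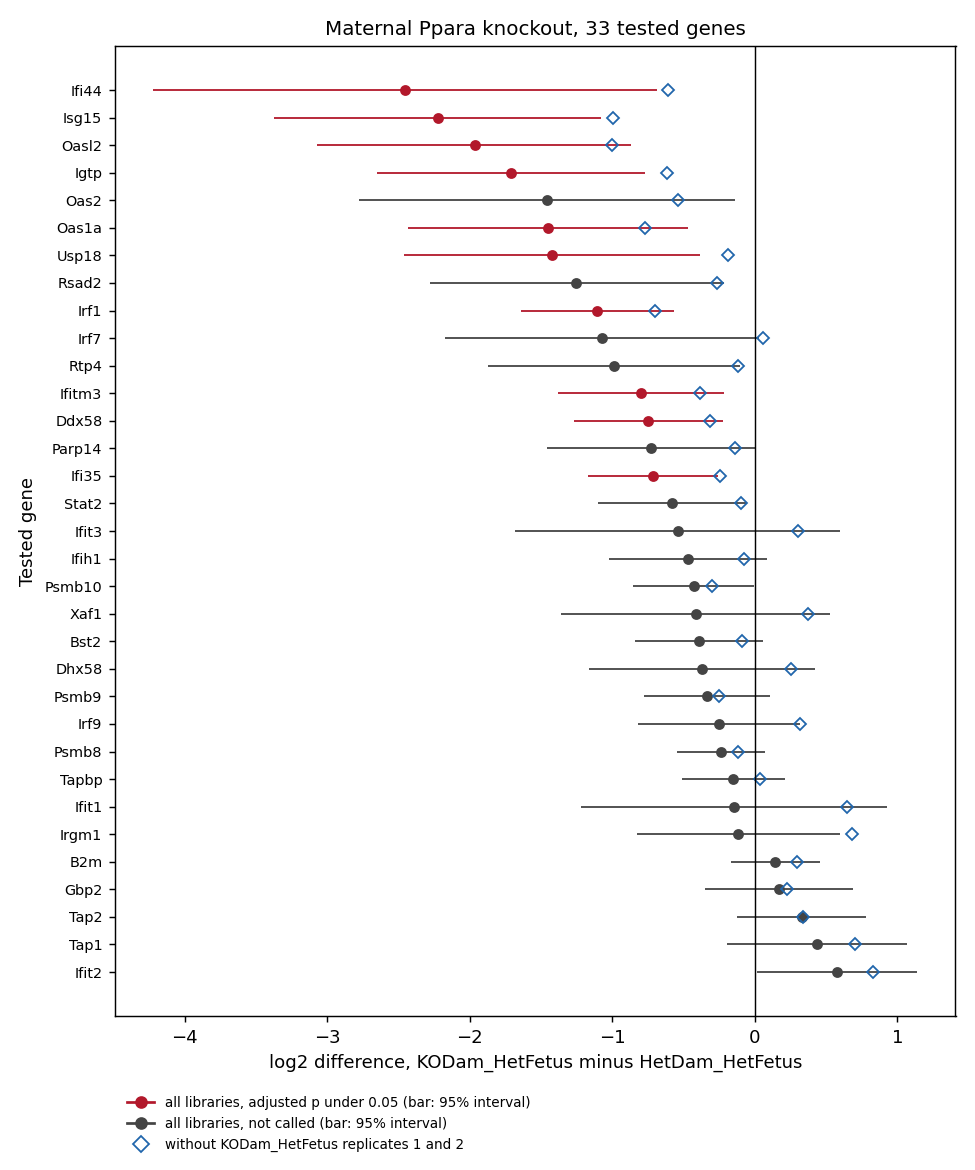
Difference between KODam_HetFetus and HetDam_HetFetus for the 33 tested genes (x axis, log2), with 95% intervals from limma. The 10 genes called lower (red) run from Ifi44 at -2.45 to Ifi35 at -0.72, and without the presumed littermates (open diamonds) each of the 10 lies closer to 0. Ifi44 was tested only because it was high in other groups, the controls among them.

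Among the sensors, Ddx58 (RIG-I, which recognises viral RNA ends; chromosome 4, 40203777 to 40239825, GRCm38.p6) was at 0.62, 0.61, 1.40 and 1.57 in KODam_HetFetus, against 1.94, 1.43, 1.64 and 2.16 in HetDam_HetFetus. The littermates were the low libraries, and the other 2 fetuses overlapped the controls or lay just under them. The difference was -0.75 ± 0.25 (SE, limma adjusted p = 0.0241, n = 4 per group), and -0.31 without the littermates (adjusted p = 0.405). Ifih1 (MDA5, a sensor of long double-stranded RNA) was at -0.11, -0.094, 0.38 and 0.99 in KODam_HetFetus, against 0.99, 0.42, 0.60 and 1.03 in HetDam_HetFetus, and did not pass (-0.47, adjusted p = 0.17). Dhx58 (LGP2, which modulates the other sensors) differed by -0.37 with a 95% interval of -1.16 to 0.42. Zbp1, a sensor of Z-form nucleic acid, was below the minimum in all 20 libraries and had no value in KODam_HetFetus replicate 2.

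Irf1 (chromosome 11, 53770014 to 53778374), the transcription factor downstream of interferon gamma, had the smallest p of all members. It was at 1.17, 1.31, 2.15 and 1.94 in KODam_HetFetus, against 2.92, 2.79, 2.29 and 3.00 in HetDam_HetFetus. All 4 fetuses of knockout dams lay below all 4 controls, although replicate 3 came close to the lowest control (-1.11 ± 0.26 SE, adjusted p = 0.00293). Without the littermates Irf1 differed by -0.70 (adjusted p = 0.0792), and over its 20 alternatives the adjusted p ran from 0.000798 to 0.0792. Irf7, the master regulator of type I interferon induction, was at 1.86, 0.69, 3.30 and 3.77 in KODam_HetFetus, against 3.53, 3.26, 3.56 and 3.55 in HetDam_HetFetus. Replicate 2 was lowest by far and replicate 4 exceeded every control, so that Irf7 did not pass (-1.07, adjusted p = 0.112) and its difference was 0.058 without the littermates. Stat2, which acts together with IRF9, was at 1.77, 1.26, 2.35 and 2.61 in KODam_HetFetus and at 2.68, 2.41, 2.58 and 2.64 in HetDam_HetFetus (-0.58, adjusted p = 0.0728). Irf9, the DNA-binding partner in that complex, differed by -0.25 (95% interval -0.82 to 0.32).

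Isg15 (chromosome 4, 156199424 to 156200818) was at 1.20, 0.67, 3.39 and 3.38 in KODam_HetFetus, against 4.62, 4.17, 4.11 and 4.63 in HetDam_HetFetus. The groups did not overlap, but the 2 littermates lay more than 2 log2 units below the other 2 fetuses of their group. The difference was -2.22 ± 0.55 (SE, adjusted p = 0.00422), 4.67-fold on the linear scale, and it was -0.998 without the littermates (adjusted p = 0.135, 0.00215 to 0.135 over 20 alternatives). Usp18, the protease that removes ISG15 from proteins and dampens the type I receptor, was at 0.62, -0.073, 2.61 and 2.86 in KODam_HetFetus, against 3.00, 2.88, 3.04 and 2.78 in HetDam_HetFetus (-1.42, adjusted p = 0.0298). Replicate 4 was within the control range, and the difference was -0.19 without the littermates.

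The oligoadenylate synthetase family, whose enzymes make the signal for RNase L, had 2 members called lower. Oasl2, a synthetase-like member of the family, was at -2.28, -1.78, -0.36 and 0.17 in KODam_HetFetus, against 1.47, 0.61, 1.00 and 0.54 in HetDam_HetFetus. No KODam_HetFetus library reached the controls (-1.97 ± 0.53 SE, adjusted p = 0.00701), and the difference was -0.999 without the littermates (adjusted p = 0.178). Oas1a, a synthetase, was at -0.34, -1.29, 0.37 and 0.74 in KODam_HetFetus, against 1.97, 1.11, 1.43 and 0.78 in HetDam_HetFetus (-1.45, adjusted p = 0.0203), the groups almost touching, and it differed by -0.77 without the littermates (adjusted p = 0.283). Oas2 was at -1.41, -2.33, -0.48 and 0.42 in KODam_HetFetus, against 0.64, 0.10, 0.77 and 0.52 in HetDam_HetFetus, and did not pass (-1.46, adjusted p = 0.0736). Oas3 and Oasl1 were below the minimum in all but 1 and 2 libraries. The counting rule is not given, so reads may have been shared among the related genes of this family, which lie on chromosome 5.

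Ifi35, an interferon-induced leucine zipper protein, was at 3.05, 2.46, 3.64 and 3.78 in KODam_HetFetus, against 4.09, 4.05, 3.90 and 3.75 in HetDam_HetFetus (-0.72, adjusted p = 0.0148), and replicate 4 overlapped the controls. Without the littermates it differed by -0.24 (adjusted p = 0.337). Ifi44, a cytoplasmic interferon-induced protein, was at -5.11, -3.05, -0.61 and -0.17 in KODam_HetFetus, against 1.06, -0.17, 0.22 and -0.22 in HetDam_HetFetus (-2.45 ± 0.85 SE, adjusted p = 0.028). It reached the minimum in 4 libraries, 2 of KODam_KOFetus and 2 of HetDam_HetFetus, and none of KODam_HetFetus, so it entered the test through the groups in which it was high, and without the littermates it differed by -0.61 (adjusted p = 0.536). Ifitm3, which blocks viral entry at endosomes, was lower by 0.80 log2 units (adjusted p = 0.0288), with no overlap, and differed by -0.39 without the littermates (adjusted p = 0.378). Rsad2 (viperin) had an adjusted p of 0.0516 at -1.25, and Rtp4, Parp14, Bst2 (tetherin) and the apoptosis factor Xaf1 did not pass, at differences from -0.99 to -0.39.

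The IFIT proteins, which bind foreign RNA, had no call. Ifit1 was at -0.28, -1.75, 0.40 and 0.73 in KODam_HetFetus, against -0.15, -0.41, -0.21 and 0.45 in HetDam_HetFetus, a mean difference of -0.15 with a 95% interval of -1.22 to 0.93. Ifit3 was at 0.89, -0.57, 1.52 and 2.18 in KODam_HetFetus and at 1.35, 1.59, 1.38 and 1.86 in HetDam_HetFetus. Its 95% interval was -1.68 to 0.60. Replicate 2 lay below every control in both genes and replicate 1 in Ifit3, while replicate 4 was above every control in both. Ifit2 had a positive difference of 0.58 (adjusted p = 0.097). Mx1, a dynamin-like GTPase annotated in this build as a transcribed pseudogene, was below the minimum in all 20 libraries, at -2.71, -4.09, -1.85 and -1.26 in KODam_HetFetus and -2.42, -3.41, -2.53 and -2.21 in HetDam_HetFetus, and Mx2 was below it likewise.

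The GTPases split by gene. Igtp (chromosome 11, 58199556 to 58207592), an immunity-related GTPase that acts at pathogen vacuoles, was at 1.05, 0.98, 3.08 and 3.35 in KODam_HetFetus, against 3.68, 3.64, 3.57 and 4.42 in HetDam_HetFetus. All 4 were below the controls, and the littermates were about 2 log2 units below replicates 3 and 4 (-1.71 ± 0.45 SE, adjusted p = 0.00629). Without them Igtp differed by -0.61 (adjusted p = 0.213, 0.00178 to 0.213 over 20 alternatives). Irgm1, of the same family, differed by -0.12 (95% interval -0.83 to 0.60). Gbp2, a guanylate-binding protein, was at 0.029, 0.67, 0.22 and 0.71 in KODam_HetFetus and at 0.57, -0.21, -0.016 and 0.60 in HetDam_HetFetus (95% interval -0.35 to 0.69), with the groups overlapping. Gbp3 did not reach the minimum in any library.

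**Figure D4:**
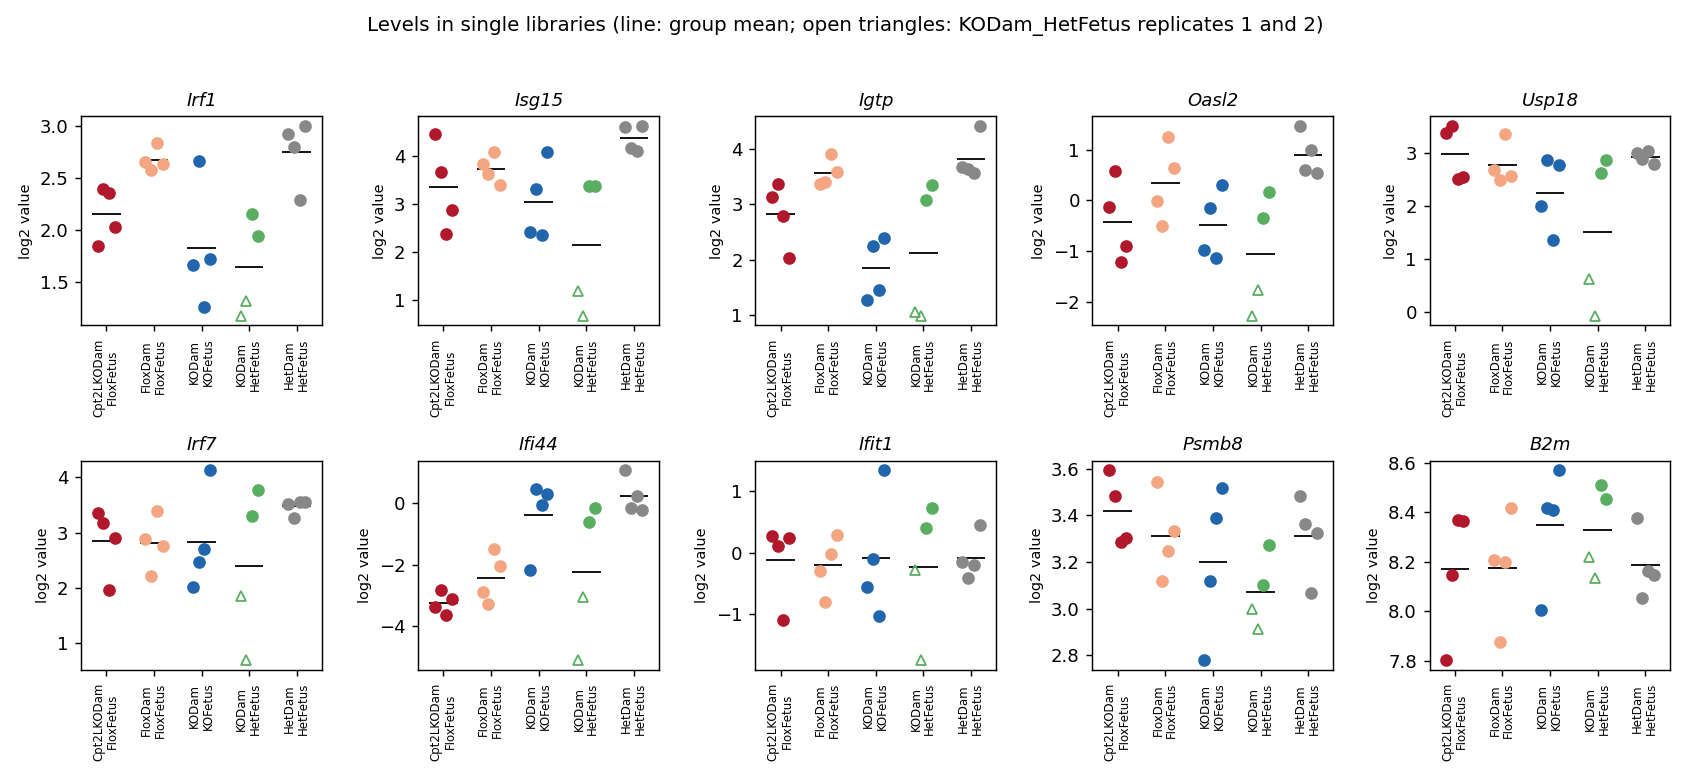
Log2 value of 10 genes in each library, by group, with the group mean as a line and KODam_HetFetus replicates 1 and 2 as open triangles. In Isg15, Igtp, Oasl2 and Usp18 the triangles lie far below the other 2 KODam_HetFetus livers, while in Irf1 all 4 are under the HetDam_HetFetus livers and in B2m and Psmb8 the groups overlap.

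None of the 7 antigen processing genes were called. B2m (chromosome 2, 122147687 to 122153082) was at 8.22, 8.14, 8.51 and 8.46 in KODam_HetFetus and at 8.38, 8.05, 8.17 and 8.15 in HetDam_HetFetus, a difference of 0.14 (95% interval -0.17 to 0.45). Psmb8, a catalytic subunit of the immunoproteasome, was at 3.00, 2.91, 3.10 and 3.27 in KODam_HetFetus and at 3.48, 3.36, 3.07 and 3.33 in HetDam_HetFetus (-0.24, 95% interval -0.55 to 0.073). Tap1, a subunit of the peptide transporter, was at 2.08, 1.77, 2.30 and 2.60 in KODam_HetFetus and at 1.90, 1.85, 1.47 and 1.78 in HetDam_HetFetus (0.44, 95% interval -0.20 to 1.07). The groups overlapped for all 3 genes. Psmb9 and Psmb10, the other immunoproteasome subunits, had adjusted p of 0.212 and 0.101, and Tap2 and Tapbp (tapasin, which bridges the transporter and MHC class I) had 0.235 and 0.513.

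Standard proteasome subunits were taken from a separate list. Of 27 tested genes for the core and regulatory particles, 20 were higher with maternal Ppara loss and 0 lower (26.4% of all genes were higher), with a median of 0.36 against 0.14 over all genes. Psmd4, a ubiquitin receptor of the regulatory particle, was at 6.28, 6.15, 6.41 and 6.42 in KODam_HetFetus, against 5.79, 5.76, 5.65 and 5.58 in HetDam_HetFetus, with no overlap (0.62, limma adjusted p = 0.000149). The ATPase Psmc1 rose by 0.54 and the core subunit Psmb4 by 0.48. Without the littermates 14 of the 27 were called higher, and 10 with trimmed-mean scaling, which moved the median of all genes to 0.0048, with 0 lower in both. In these fits 24.1% and 37.4% of all genes were called in either direction. In KODam_KOFetus minus HetDam_HetFetus the count was 21 of 27 higher (17.4% of all genes), with Psmd4 at 6.32, 6.14, 6.20 and 6.09. With trimmed-mean scaling it was 8, while 21.3% of all genes were called in either direction. Both comparisons share the HetDam_HetFetus livers, which were themselves below FloxDam_FloxFetus in 26 of the 27 genes, with a median of -0.26 against -0.15 over all genes. Of those 27 differences between the control groups 0 were called by limma, and 20 had an unadjusted p under 0.05, against 16.5% of all genes. No test set the 2 kinds of subunit against each other.

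**Figure D5:**
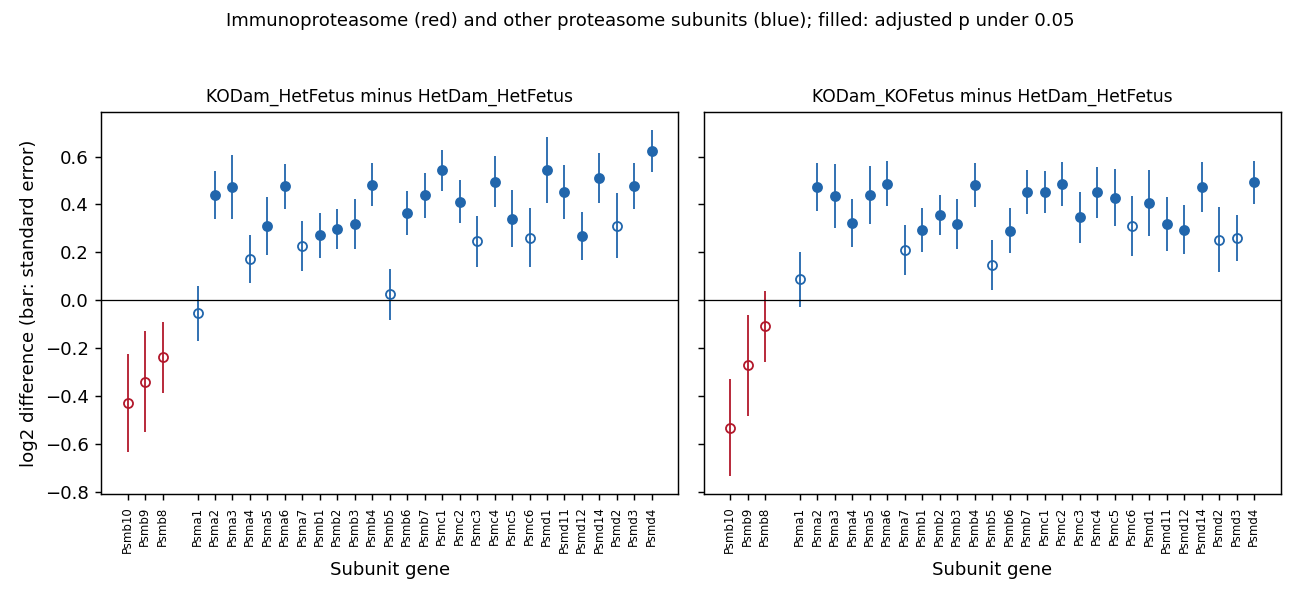
Log2 difference with its standard error for 3 immunoproteasome genes (red) and 27 other proteasome genes (blue), KODam_HetFetus minus HetDam_HetFetus (left) and KODam_KOFetus minus HetDam_HetFetus (right), filled where the adjusted p was under 0.05. The red points lie below 0 and are open, and 20 (left) and 21 (right) of the blue points are filled above 0.

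Other genes of the pathway were taken from lists by role. Of 21 tested receptor and signalling genes, 2 were higher and 6 lower (38.1%, against 39% of all genes). Without the littermates 2 were higher and 2 lower, while 24.1% of all genes were called. Jak2, the kinase of the gamma receptor, was at 3.61, 3.48, 3.18 and 3.26 in KODam_HetFetus, against 2.11, 1.70, 2.02 and 1.94 in HetDam_HetFetus, with all 4 far above the controls (1.44, limma adjusted p = 0.000214). Ikbke, a kinase that activates IRF3 and IRF7, was at 0.73, 1.15, 0.75 and 1.27 in KODam_HetFetus, against 2.24, 2.02, 2.24 and 2.01 in HetDam_HetFetus (-1.15, adjusted p = 0.000511). Tbk1, the related kinase, rose by 0.56. These 3 kept their calls without the littermates, at 1.28, -1.12 and 0.61, with the highest adjusted p over 20 alternatives at 0.00702.

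Of 38 tested interferon-stimulated genes outside the 39, 1 was higher and 9 were lower (26.3%, against 39% of all genes, of which 12.6% lower). The counts were 0 higher and 18 lower with trimmed-mean scaling, and 0 and 2 without the littermates. In these fits 37.4% and 24.1% of all genes were called in either direction. Immunity-related GTPases had the smallest p. Ifi47 was at 0.024, -0.19, 1.04 and 1.40 in KODam_HetFetus, against 2.49, 2.53, 2.20 and 3.36 in HetDam_HetFetus. Irgm2 was at -0.41, -0.44, 1.26 and 1.34 in KODam_HetFetus, against 2.39, 2.20, 2.49 and 3.04 in HetDam_HetFetus. All 4 fetuses of knockout dams were below the controls in both genes (-2.07 and -2.09). They kept their calls without the littermates, at -1.42 and -1.23, whereas Iigp1 fell by 2.98 with all libraries and did not pass without them (-1.56, adjusted p = 0.0654, 0.000308 to 0.0654 over 20 alternatives). Of 12 tested MHC class I genes 2 were called (16.7%, against 39% of all genes). H2-T24 was lower (-2.25, and -1.46 with an adjusted p of 0.0301 without the littermates). H2-Q6 was higher (1.81), a call lost without both littermates (1.57, adjusted p = 0.192), without HetDam_HetFetus replicate 2 (0.98) and without any 1 of the KODam_HetFetus libraries. Reads of these near-identical genes may be split among them. Of 9 peptide loading genes 2 were called (22.2%): Tapbpl, a tapasin relative, fell by 0.73 and the proteasome activator Psme3 rose by 0.47, and both kept their calls without the littermates. Of 10 negative regulators, 2 were higher and 2 lower (40%), among them Trim24 at 1.04 and the phosphatase Ptpn6 at -0.70. Without the littermates 1 was higher and 1 lower, while 24.1% of all genes were called. None of 7 MHC class II genes were called.

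Summed markers of blood cell types were set side by side for this comparison, and only those of neutrophils and myeloid progenitors did not overlap. The 9 erythroid markers summed to 215400 to 231400 in KODam_HetFetus, against 170400 to 218300 in HetDam_HetFetus. The 6 megakaryocyte markers summed to 127.8 to 263, against 204.8 to 248.4. The 11 neutrophil and myeloid progenitor markers summed to 3173 to 5316 in KODam_HetFetus, against 5410 to 8222 in HetDam_HetFetus, with none at 0. The 9 T and NK markers summed to 2.75 to 8.91, against 6.67 to 12.8, with 2 or 3 at 0 in each KODam_HetFetus library and 1 or 2 in each HetDam_HetFetus library, and the 8 B lymphoid markers to 39 to 70.3, against 62.7 to 92.1. The 10 dendritic markers, of which Bst2 is also one of the 39 genes, summed to 22.7 to 35.0 in KODam_HetFetus, against 33.5 to 38.5 in HetDam_HetFetus, and were lowest in the littermates (26.0 and 22.7, with 1 marker at 0 in replicate 2). Bst2, at a mean of log2 4.53 over the 20 libraries, makes up much of that sum. The dendritic sum is therefore not independent of the 39 genes. The sum of the 11 macrophage and Kupffer markers overlapped, at 498.2 to 597.5 in KODam_HetFetus and 518.6 to 631 in HetDam_HetFetus. As single genes, 3 of these 11 were called lower and 1 higher by limma, and 8 of the 11 neutrophil markers were called lower. Those counts are with all libraries, the littermates included. Of all genes tested, 12.6% were called lower and 26.4% higher. The part of the cell markers in the result was not tested.

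Loss of both maternal and fetal Ppara was assessed as KODam_KOFetus minus HetDam_HetFetus, which shares its controls with the comparison above. Of the 33 genes, 3 were lower and 0 higher, while 24.7% of all genes were called, 7.31% lower. With litter as a random block, which takes in the presumed littermates KODam_KOFetus replicates 1 and 2, 2 of the 3 were called, and Ddx58 was not (-0.73, limma adjusted p = 0.0607). That fit called 19.7% of all genes. At an unadjusted p under 0.05 there were 7 of the 33, against 38.9% of all genes, and 4 were lower without overlap, against 7.29% of all genes. The median difference was -0.44 against 0.14 over all genes. Igtp was at 1.27, 2.25, 1.46 and 2.40 in KODam_KOFetus, against the 3.57 to 4.42 of HetDam_HetFetus, with all 4 fetuses well below the lowest control (-1.99 ± 0.45 SE, adjusted p = 0.00465). Irf1 was at 1.66, 2.66, 1.26 and 1.72 in KODam_KOFetus, against 2.29 to 3.00 in HetDam_HetFetus (-0.92, adjusted p = 0.0149), with replicate 2 inside the control range. Ddx58 was at 0.58, 1.27, 0.95 and 1.36 in KODam_KOFetus, against 1.43 to 2.16, without overlap (-0.75, adjusted p = 0.0343). Irf1 lost its call without KODam_KOFetus replicate 3 (adjusted p = 0.0558). Ddx58 lost its call without KODam_KOFetus replicate 1 or 3 or HetDam_HetFetus replicate 1 or 4 (adjusted p from 0.0732 to 0.109).

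None of the 16 tested antiviral effectors and regulators were called by limma in the knockout fetuses (3 had an unadjusted p under 0.05). Isg15 was at 2.42, 3.33, 2.36 and 4.10 in KODam_KOFetus, all under the lowest control at 4.11 (-1.33, adjusted p = 0.0804). Usp18 was at 2.00, 2.87, 1.36 and 2.76 (-0.68, adjusted p = 0.327) and Oasl2 at -0.99, -0.15, -1.14 and 0.30 (-1.40, adjusted p = 0.0579). Replicate 4 was the highest of all 20 libraries in 13 members, among them Irf7 at 4.13, Ifit1 at 1.34 and Ifit3 at 2.52. B2m was at 8.01, 8.42, 8.41 and 8.57 in this group and Psmb8 at 2.78, 3.12, 3.39 and 3.52, both overlapping the controls. Among the other genes of the pathway, Ifi47 (-1.77), Irgm2 (-1.76) and Iigp1 (-3.34) were lower again, Jak2 was higher (0.97) and Ikbke lower (-0.96).

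Loss of the fetus's own Ppara under knockout dams was assessed as KODam_KOFetus minus KODam_HetFetus. None of the 33 genes were called by limma (2 had an unadjusted p under 0.05), while 0.822% of all genes were called and 10.9% had an unadjusted p under 0.05. The smallest p were those of Ifi35, at 3.61, 3.78, 3.47 and 4.06 in KODam_KOFetus against 3.05, 2.46, 3.64 and 3.78 in KODam_HetFetus (0.50, adjusted p = 0.437), and of Ifi44, at -2.17, 0.45, -0.085 and 0.27 in KODam_KOFetus against -5.11, -3.05, -0.61 and -0.17 in KODam_HetFetus (1.85, adjusted p = 0.444). The groups overlapped in both genes, and without the littermates the differences were 0.023 and 0.0037. The median difference was 0.14 with all libraries and -0.36 without the littermates, so its sign rests on that pair.

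Loss of Cpt2 in the maternal liver, Cpt2LKODam_FloxFetus minus FloxDam_FloxFetus, gave 0 calls among the 33 genes and 0 among all 11805 tested (11.1% had an unadjusted p under 0.05, and 1 of the 33 did). The smallest p belonged to Ddx58 and Irf1. Ddx58 was at 0.87, 1.42, 1.05 and 1.03 in Cpt2LKODam_FloxFetus, against 1.29, 1.29, 2.03 and 1.87 in FloxDam_FloxFetus (-0.53, limma adjusted p = 0.448). Irf1 was at 1.84, 2.39, 2.35 and 2.03 in Cpt2LKODam_FloxFetus, against 2.66, 2.57, 2.83 and 2.63 in FloxDam_FloxFetus, and the groups did not overlap (-0.52, adjusted p = 0.457). Igtp was at 3.13, 3.37, 2.79 and 2.03 in Cpt2LKODam_FloxFetus, against 3.38, 3.41, 3.92 and 3.59 in FloxDam_FloxFetus, with the groups almost touching (-0.75, adjusted p = 0.542). Irf1 and Igtp were the 2 of 33 genes whose groups did not overlap, both lower, while 2.86% of all genes were lower without overlap. The median over the 33 was -0.040.

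Isg15 did not share that order: it was at 4.48, 3.68, 2.38 and 2.88 in Cpt2LKODam_FloxFetus and at 3.85, 3.64, 4.10 and 3.40 in FloxDam_FloxFetus, with replicate 1 of the knockout dams the highest of the 8. Usp18 was at 3.37, 3.50, 2.50 and 2.55 in Cpt2LKODam_FloxFetus and at 2.67, 2.49, 3.34 and 2.56 in FloxDam_FloxFetus. B2m was at 7.80, 8.15, 8.37 and 8.36 in Cpt2LKODam_FloxFetus and at 8.21, 7.88, 8.20 and 8.42 in FloxDam_FloxFetus. Iigp1 was at 1.81, 1.68, 0.39 and 0.013 in Cpt2LKODam_FloxFetus, against 1.87, 2.15, 3.31 and 2.75 in FloxDam_FloxFetus, and Ifi47 at 1.69, 1.74, 1.49 and 1.23 in Cpt2LKODam_FloxFetus against 2.16, 2.26, 2.24 and 2.29 in FloxDam_FloxFetus. Neither overlapped and neither was called.

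Whether the maternal Ppara effect exceeded the maternal Cpt2 effect was tested as the difference of the 2 differences. None of the 33 genes were called by limma and 2 had an unadjusted p under 0.05, against 0 calls and 19.9% unadjusted among all genes. The 2 were Isg15 (-1.83, adjusted p = 0.207) and Usp18 (-1.63, adjusted p = 0.211), at -0.60 and -0.40 without the littermates (adjusted p = 0.646 and 0.697). With all libraries 28 of the 33 differences of effects were negative, with a median of -0.34, against 0.15 over all genes. Without the littermates the median was 0.13, against 0.23 over all genes, so its sign rests on that pair. For Irf1 the difference of effects was -0.58 with a 95% interval of -1.34 to 0.18, and for Igtp it was -0.97 (-2.30 to 0.36).

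The 2 control groups come from different crosses and were compared as HetDam_HetFetus minus FloxDam_FloxFetus. None of the 33 genes were called by limma (1 had an unadjusted p under 0.05), while 0.136% of all genes were called and 16.5% had an unadjusted p under 0.05. In all, 26 of the 33 differences were positive and 7 negative, with a median of 0.155, against -0.15 over all tested genes. The comparisons of KODam_HetFetus and KODam_KOFetus with HetDam_HetFetus share these controls. Ifi44 was at 1.06, -0.17, 0.22 and -0.22 in HetDam_HetFetus, against -2.89, -3.28, -1.51 and -2.06 in FloxDam_FloxFetus, without overlap (2.65 ± 0.85 SE, adjusted p = 0.17). It reached the minimum in 2 HetDam_HetFetus libraries and in no library of the Cpt2f/f groups, so it entered this comparison through the group in which it was high. It was as low in Cpt2LKODam_FloxFetus, at -3.64 to -2.84, so both Cpt2f/f groups sat below the Ppara heterozygous controls for this gene. Rsad2, with the next smallest p, was at 4.21, 4.09, 4.29 and 4.61 in HetDam_HetFetus, against 2.86, 3.21, 4.11 and 3.74 in FloxDam_FloxFetus, and the groups overlapped by a little (0.82, adjusted p = 0.41). Isg15 was at 4.11 to 4.63 in HetDam_HetFetus and 3.40 to 4.10 in FloxDam_FloxFetus, the groups almost touching. Isg15 and Ifi44 were higher without overlap, as were 0.466% of all genes, and since Ifi44 had to be high to be tested, nothing is read from their number.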

How the data were processed

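The authors deposited 1 table of log2 values for 45802 gene entries in 20 libraries (stranded mRNA libraries, per the labels' protocols; bcl2fastq 2.17.1.14, Partek 7.0 and GRCm38.p6, per the submitters' processing notes). For the quantity before the logarithm, its base, the aligner and the counting rule, the record is: not given in the sources used here. Base 2 was assumed. The 10th, 50th and 90th percentiles were the same in every library (-6.88, -0.93 and 4.08), the pattern that quantile normalization leaves. Levels are not per gene length and are not compared between genes. Depth is unknown.

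Genes with a linear value of at least 1 in at least 4 libraries were tested with limma 3.58.1 in R 4.3.3: all 20 libraries, a mean per group, trended eBayes, two-sided, Benjamini-Hochberg over all genes, calls under an adjusted p of 0.05. The fit was tested on simulated data with changes added to KODam_HetFetus, 50 genes per size. It recovered 14% of changes of 0.5 log2 units, 76% of 1, 94% of 2 and 100% of 4. Of 151 calls 9 were false. The simulated data held no litters and few changed genes, so these shares need not hold here. Genes given in every library were the 5 called members with the smallest p per comparison (2 where fewer than 3 were called), 13 fixed members, and up to 3 called genes of each pathway list. Others were chosen after their values were seen: Ddx58, Oas1a and Ifi44 for maternal Ppara loss, Oasl2 for KODam_KOFetus, Igtp, Ifi47 and Iigp1 in the Cpt2 groups, and Irf1 and Igtp for the difference of effects. The 39 members and all lists were chosen with earlier results of these data known. Alternatives were other scalings, pseudocounts, filters, sex as a covariate, litter and replicate blocks, and left-out libraries. Figures used Python 3.11.15 with matplotlib 3.10.9.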

Additional observations from a re-analysis of the deposited data

Results flagged for a closer look

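In 10 of 224 groups of 4 libraries examined, 1 library lay far from the other 3, with a gap to the nearest of them that exceeded Dixon's 95% critical value for 4 samples. Chance flags about 1 in 20 groups. Single genes were Irf9 at 4.07 in KODam_KOFetus replicate 4 (highest), Ifit1 at -1.10 in Cpt2LKODam_FloxFetus replicate 3 (lowest) and Tap1 at 2.36 in Cpt2LKODam_FloxFetus replicate 4 (highest). In HetDam_HetFetus, Irf7 was lowest in replicate 2 at 3.26, the others being at 3.53 to 3.56, and Igtp was highest in replicate 4 at 4.42. FloxDam_FloxFetus replicate 2 was lowest in its group for Ifit2 at 0.23 and for Oasl1 at -3.60, and for the median deviation of the GTPases at -0.16. The median deviation of the sensors was highest in Cpt2LKODam_FloxFetus replicate 2 at 0.085, and that of the antigen presentation genes in Cpt2LKODam_FloxFetus replicate 4 at 0.17.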

How the results depend on the processing

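With maternal Ppara loss, 10 members were called lower. The count was 16 with trimmed-mean scaling, 16 with quantile normalization of the tested genes, 4 with litter as a random block, 0 without the presumed littermates and 2 (Irf1 and Oasl2) without the 4 libraries with tissue markers. Leaving out 1 library gave 4 (without KODam_HetFetus replicate 2) to 17 (without KODam_HetFetus replicate 4), with 5 without KODam_HetFetus replicate 1 and 5 without HetDam_HetFetus replicate 1. Across the fits that left out 1 library, 30.0% to 35.7% of all genes were called. Irf1, Isg15, Igtp and Oasl2 were called in each of these 8 fits and with the litter block. The scalings moved the median of all genes to 0.0048 and 0.052, where it was 0.14 as deposited. The count was 8 with no filter (19.1% of all genes) and 7 with a filter at a linear value of 4 (43.1%). With maternal and fetal loss the count was 3 (24.7% of all genes). It was 5 with trimmed-mean scaling (21.3%), quantile normalization (22.4%), a pseudocount of 4 (23.2%) or only the groups compared (19.8%). With 1 library left out it was 2 to 4 (15.5% to 25.6% of all genes). The other comparisons gave 0 under every alternative run, where at most 3.57% of all genes were called. No difference of a named gene was called in the opposite direction. Replicate numbers showed no clear pairing of the libraries: over 40 same-numbered pairs, deviations correlated at -0.38 to 0.45. Their median was 0.071, against -0.028 for pairs with different numbers. With the replicate block the count was 13 with maternal Ppara loss (1 higher, 12 lower), while 39.7% of all genes were called. It was 3 with maternal and fetal loss (25.8% of all genes) and 0 in the others. The rule for tissue libraries, a summed level of 4 times the median and at least 50, was set after seeing the data. Depth is unknown, so the precision of low levels (Ifi44, Oas2) is not known.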
